A study of Mus musculus with 9 samples.

Results

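Cathepsins are the proteases that break down proteins inside lysosomes and endosomes, and the 10 cathepsin genes described here are Ctsa, Ctsb, Ctsc, Ctsd, Ctse, Ctsh, Ctsk, Ctsl, Ctss and Ctsz. They were picked by symbol from the 55274 gene identifiers of each table by a rule that uses no measured value, though with earlier results of these data known, and all 10 had a row in each of the 9 RNA-seq libraries. The cells came from the bone marrow of female C57BL/6J mice treated with 5-fluorouracil, which spares the resting immature cells, at 150 mg/kg and harvested 4 days later. They were kept for 48 h with 10 ng/mL of human interleukin-6, 6 ng/mL of murine interleukin-3 and 20 ng/mL of murine stem cell factor, transduced with retroviruses, sorted by fluorochrome and expanded in vitro. Of the libraries, 3 were NRASG12D cells, which carried an activated RAS protein in a vector marked with BFP, 3 were NUP98-NSD1 cells, which carried a fusion of a nuclear pore protein with a histone methyltransferase in a vector marked with GFP, and 3 were NUP98-NSD1+NRASG12D cells, which carried both vectors. In every group the transgenes were driven by the strong viral promoter of the MSCV vector and not at the level of the endogenous genes, and no vector-only library was analysed here. Nothing in the labels says that replicates came from separate mice or cultures, so the p-values below measure the spread between these libraries, which may be technical.

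Most cathepsins are cysteine proteases of the papain family. They are made as inactive precursors, carried to the lysosome by the mannose 6-phosphate system or by sortilin, and activated in the acid lumen by other proteases. In myeloid cells they degrade phagocytosed material, trim the invariant chain of MHC class II molecules and, in the case of cathepsin C, activate the serine proteases of neutrophil and mast cell granules. The cystatins and stefins are their natural inhibitors.

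Values are FPKM, the fragments of a gene scaled by transcript length and by the fragments mapped in the library, so levels of different genes can be compared per length. FPKM keeps no read totals, and the steps between low values gave an estimate of 23500000 to 37000000 fragments per library. Mast cell markers were high in NRASG12D cells, where the study's text describes predominantly mast cells, with 8 of 9 markers at 1 FPKM or more in every library and a sum of 30001 to 32606 FPKM. The ninth, Cpa3, was listed at 0 there and at 12564 or more in NUP98-NSD1 libraries, and an exact 0 beside such levels of the other markers can be a failed estimate. Without Cpa3 the sum was 13665 to 17456 FPKM in NUP98-NSD1 and 459 to 2503 FPKM in NUP98-NSD1+NRASG12D libraries, both below NRASG12D, whereas with it the sum was 26824 to 31835 and 738 to 4324 FPKM. Hdc and Mcpt4 of this list were instead higher in NUP98-NSD1 than in NRASG12D libraries. Hdc had 3.61, 8.72 and 1.60 FPKM in NRASG12D, 102, 169 and 51.8 FPKM in NUP98-NSD1 and 77.5, 129 and 8.08 FPKM in NUP98-NSD1+NRASG12D libraries. Mcpt4 had 101, 33.2 and 91.1, 415, 415 and 491, and 5.25, 34.1 and 7.46 FPKM in the same order. The 8 neutrophil markers summed to 0.194 to 12.9, 1352 to 5436 and 8422 to 18740.5 FPKM in the same order, and the 10 monocyte and macrophage markers to 30.6 to 41.5, 390.2 to 819 and 1578 to 4235 FPKM. Of that last list Cx3cr1 went the other way, with 21.4, 11.1 and 21.4 FPKM in NRASG12D and 4.36, 2.83 and 2.36 FPKM in NUP98-NSD1+NRASG12D libraries. A difference between these groups in a cathepsin gene and a difference in cell mixture cannot be told apart here, and in bulk RNA fewer cells of a type and less RNA per cell cannot be told apart. B cell markers summed to at most 0.158 FPKM in any library.

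The 10 genes lie on 7 chromosomes of GRCm38. Ctsk and Ctss are neighbours on chromosome 3 on the plus strand, Ctsk from 95499256 to 95509362 and Ctss from 95526786 to 95556403, with 17423 bp between them. Ctsl lies on chromosome 13 from 64359337 to 64370890 and Ctsd on chromosome 7 from 142375911 to 142388038, both on the minus strand. Ctsa lies on chromosome 2 from 164832873 to 164841032 on the plus strand and Ctsz on the same chromosome from 174427493 to 174439039 on the minus strand. Ctsc, from 88278085 to 88310888 on chromosome 7, Ctsb, from 63122462 to 63145923 on chromosome 14, Ctse, from 131638306 to 131675505 on chromosome 1, and Ctsh, from 90054152 to 90076089 on chromosome 9, are on the plus strand. Several of the 10 share exon bases with another gene. Gm49369 covers 34.4% of the exon bases of Ctsd on the same strand, Gm47123 covers 26.8% of those of Ctsl on the other strand and Fdft1 covers 12.8% of those of Ctsb on the other strand. The treatment of strand and of reads with several alignments is not given in the sources used here, so reads in these shared bases cannot be assigned with certainty.

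A RefSeq promoter window of 300 bases on GRCm38.p6, with 250 bases before the transcription start and 50 after it, was found for 7 of the 10 genes, in 8 windows since Ctsa has a pair of starts. Ctsb, Ctse and Ctsh had no entry in that table. Both strands were searched for the E-box CACGTG, for the extended E-box TCACGTG of lysosomal genes, which contains the E-box, for the PU.1-type ETS motif GAGGAAG and for the AP-1 motif TGANTCA. Among all 32851 windows, 7.15% held the E-box, 3.77% the extended E-box, 13.6% the ETS motif and 7.81% the AP-1 motif. The E-box was found in Ctsa, Ctsd and Ctsl and the extended E-box in Ctsa and Ctsd. The ETS motif was found in Ctsc, Ctsk and Ctss, where that of Ctss spans the start site, and the AP-1 motif in none of the 8 windows. These matches are a description of letters and not of bound sites. The 250 bases before the start are shown for Ctsd and Ctsa, which hold the extended E-box and were abundant in all 3 groups, and for Ctsl and Ctsk, which lack it and were nearly absent from NRASG12D cells. Ctsc and Ctsz also lack it but had at least 211 and 74.4 FPKM in every library, so a lack of it did not always go with a low level. Capitals mark the matches.
Ctsd, chr7:142387828-142388077, minus strand: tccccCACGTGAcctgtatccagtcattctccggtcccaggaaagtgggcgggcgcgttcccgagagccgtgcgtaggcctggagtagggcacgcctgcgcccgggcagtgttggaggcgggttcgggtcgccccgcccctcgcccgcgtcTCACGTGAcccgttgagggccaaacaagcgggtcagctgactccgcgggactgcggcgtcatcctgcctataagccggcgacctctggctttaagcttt
Ctsa, second start, chr2:164833523-164833772, plus strand: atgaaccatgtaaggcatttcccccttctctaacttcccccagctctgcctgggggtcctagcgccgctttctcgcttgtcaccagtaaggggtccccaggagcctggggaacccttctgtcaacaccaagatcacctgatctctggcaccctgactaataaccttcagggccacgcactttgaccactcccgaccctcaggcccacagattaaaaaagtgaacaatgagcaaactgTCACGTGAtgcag
Ctsl, chr13:64370521-64370770, minus strand: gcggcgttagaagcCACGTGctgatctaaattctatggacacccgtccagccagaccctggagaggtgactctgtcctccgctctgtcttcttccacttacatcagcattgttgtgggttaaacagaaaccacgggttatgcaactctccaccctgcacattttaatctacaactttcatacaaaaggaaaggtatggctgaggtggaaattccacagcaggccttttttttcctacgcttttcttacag
Ctsk, chr3:95498960-95499209, plus strand: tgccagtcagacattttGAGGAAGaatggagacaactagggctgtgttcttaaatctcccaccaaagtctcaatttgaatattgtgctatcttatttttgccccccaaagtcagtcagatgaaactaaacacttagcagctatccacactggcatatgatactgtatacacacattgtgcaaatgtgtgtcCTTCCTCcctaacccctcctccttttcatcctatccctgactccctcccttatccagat

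The cysteine endopeptidases of the group, Ctsl, Ctss and Ctsk, were close to absent from NRASG12D cells and present in both groups with the fusion. Ctsl encodes a broad lysosomal endopeptidase. In NRASG12D libraries its level was 0.109, 0.996 and 0.0784 FPKM. It was 63.6, 49.9 and 42.7 FPKM in NUP98-NSD1 and 126, 811 and 236 FPKM in NUP98-NSD1+NRASG12D libraries. No library of one group reached the range of another, and the level rose from NRASG12D to NUP98-NSD1 to NUP98-NSD1+NRASG12D. On the log2(FPKM + 1) scale, on which all differences below are given, Ctsl was higher in NUP98-NSD1 than in NRASG12D cells by 5.29 ± 0.26 (SE, limma adjusted p = 5.83e-05). It was higher in NUP98-NSD1+NRASG12D than in NRASG12D cells by 7.76 ± 0.65 (limma adjusted p = 2.53e-04).

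Ctss encodes a cysteine protease of antigen-presenting cells that cleaves the invariant chain and stays active at neutral pH. It had 0.791, 4.21 and 1.20 FPKM in NRASG12D, 138, 137 and 168 FPKM in NUP98-NSD1 and 363, 1630.2 and 383 FPKM in NUP98-NSD1+NRASG12D libraries. The order of the groups was that of Ctsl, again without overlap. The difference from NRASG12D cells was 5.76 ± 0.37 in NUP98-NSD1 (SE, limma adjusted p = 1.48e-04) and 7.80 ± 0.66 in NUP98-NSD1+NRASG12D cells (limma adjusted p = 2.59e-04).

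Ctsk, next to Ctss on chromosome 3 and best known as the collagen-degrading protease of osteoclasts, was the lowest of the 10 genes in NRASG12D cells. Its 0.0583, 0 and 0.0312 FPKM correspond to about 2, 0 and 1 fragments, and the 0 allows a level of up to 0.0595 FPKM at that library's depth, a limit that covers counting error only. NUP98-NSD1 libraries had 1.62, 0.823 and 0.788 FPKM, or about 68, 31 and 27 fragments, and NUP98-NSD1+NRASG12D libraries 1.62, 20.6 and 5.76 FPKM. Both groups with the fusion lay above all NRASG12D libraries, and they overlapped each other. The difference from NRASG12D cells was 0.99 ± 0.18 in NUP98-NSD1 cells (SE, limma adjusted p = 0.00476), a value that depends on the pseudocount and was 0.14 with a pseudocount of 10 and 3.14 with 0.1. It was not called with all 9 libraries fitted together (limma adjusted p = 0.241) or with quantile scaling (limma adjusted p = 0.199). Among the 6 osteoclast markers, Calcr was at 0 in both groups with the fusion, and the list summed to between 2.31 and 6.12 FPKM in NRASG12D, between 4.40 and 6.74 FPKM in NUP98-NSD1 and between 5.92 and 80.5 FPKM in NUP98-NSD1+NRASG12D libraries. Of that 80.5 FPKM, in replicate 2, Atp6v0d2 gave 67.2 FPKM.

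**Figure D1:**
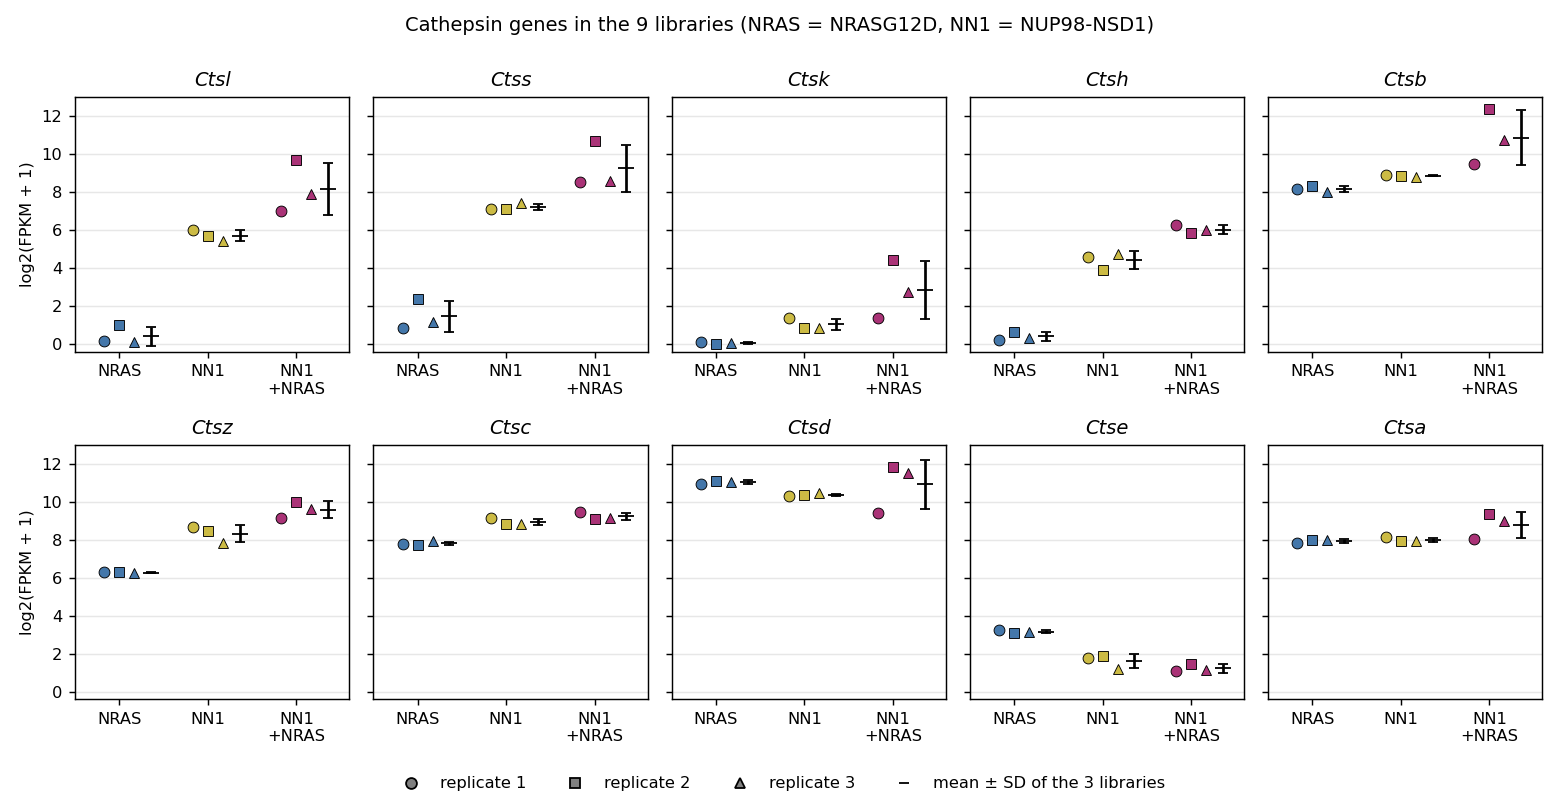
Levels of the 10 cathepsin genes as log2(FPKM + 1), with 1 symbol per library and the mean and SD of the 3 libraries of each group as a bar. Ctsl, Ctss, Ctsh, Ctsb and Ctsz rise from NRASG12D to NUP98-NSD1 to NUP98-NSD1+NRASG12D without overlap, Ctse is highest in NRASG12D, and replicate 2 of NUP98-NSD1+NRASG12D is the highest library for 7 of the 10 genes.

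The cysteine cathepsins that act mainly as exopeptidases, Ctsh, Ctsb, Ctsz and Ctsc, were all higher in both groups with the fusion than in NRASG12D cells, by very different amounts. Ctsh encodes an aminopeptidase. It had 0.159, 0.575 and 0.261 FPKM in NRASG12D, 23.3, 13.7 and 25.8 FPKM in NUP98-NSD1 and 75.8, 55.8 and 62.9 FPKM in NUP98-NSD1+NRASG12D libraries. Among the groups, NUP98-NSD1+NRASG12D had the smallest spread of Ctsh relative to its mean. The SD was 15.7% of the mean there, against 65.4% in NRASG12D and 30.5% in NUP98-NSD1 libraries. Ctsh was higher than in NRASG12D cells by 4.01 ± 0.24 in NUP98-NSD1 (SE, limma adjusted p = 1.21e-04) and by 5.63 ± 0.20 in NUP98-NSD1+NRASG12D cells (limma adjusted p = 2.17e-05).

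Ctsb encodes a carboxydipeptidase that also cleaves within chains. It had 283, 317 and 259 FPKM in NRASG12D, 472, 467 and 450.4 FPKM in NUP98-NSD1 and 714, 5327 and 1683 FPKM in NUP98-NSD1+NRASG12D libraries. The first 2 groups were tight, with SDs of 10.3% and 2.42% of the mean, while the highest library of NUP98-NSD1+NRASG12D was 7.46 times the lowest. The difference between NUP98-NSD1 and NRASG12D cells was 0.70 ± 0.10 (SE, limma adjusted p = 0.00186), and was not called when all 9 libraries shared 1 estimate of the spread (limma adjusted p = 0.377). Cells with both transgenes exceeded NRASG12D cells by 2.70 ± 0.66 (limma adjusted p = 0.0185).

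Ctsz encodes a carboxypeptidase that also binds integrins. It had 77.0, 76.1 and 74.4 FPKM in NRASG12D, 409, 344 and 228 FPKM in NUP98-NSD1 and 566, 1027 and 774 FPKM in NUP98-NSD1+NRASG12D libraries, with no overlap between the groups. It rose by 2.05 ± 0.20 in NUP98-NSD1 (SE, limma adjusted p = 6.80e-04) and by 3.32 ± 0.23 in NUP98-NSD1+NRASG12D cells against NRASG12D cells (limma adjusted p = 1.46e-04). Ctsc encodes the dipeptidyl peptidase that activates granule serine proteases. Its levels were 219.7, 211 and 239 FPKM in NRASG12D, 556, 451 and 457 FPKM in NUP98-NSD1 and 699, 538 and 559 FPKM in NUP98-NSD1+NRASG12D libraries. The groups with the fusion were above NRASG12D cells and overlapped each other. Against NRASG12D cells, Ctsc was higher by 1.12 ± 0.11 in NUP98-NSD1 (SE, limma adjusted p = 6.51e-04) and by 1.41 ± 0.18 in NUP98-NSD1+NRASG12D cells (limma adjusted p = 0.00119).

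The aspartic proteases went the other way or did not pass the test. Ctsd, the major aspartic protease of lysosomes, was the most abundant cathepsin transcript of NRASG12D and NUP98-NSD1 cells. It had 1919, 2198 and 2129 FPKM in NRASG12D, 1258, 1281 and 1382 FPKM in NUP98-NSD1 and 676, 3569 and 2921 FPKM in NUP98-NSD1+NRASG12D libraries. NUP98-NSD1 lay below NRASG12D in every library, with a difference of -0.67 ± 0.10 (SE, limma adjusted p = 0.00241), and this was not called when all 9 libraries were fitted together (limma adjusted p = 0.354). Replicate 1 of NUP98-NSD1+NRASG12D was the lowest and the other libraries of that group were the highest of all 9. The difference from NRASG12D cells was -0.12 with a 95% interval from -1.56 to 1.33 (limma adjusted p = 0.889). Without replicate 1 it was 0.64 (limma adjusted p = 0.0489).

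Ctse encodes an aspartic protease of endosomes and of the endoplasmic reticulum. It had 8.41, 7.41 and 7.74 FPKM in NRASG12D, 2.46, 2.65 and 1.30 FPKM in NUP98-NSD1 and 1.08, 1.77 and 1.18 FPKM in NUP98-NSD1+NRASG12D libraries. It was highest in NRASG12D cells without overlap, and the other groups overlapped. Ctse fell by 1.53 on the log2 scale in NUP98-NSD1 (SE 0.19, limma adjusted p = 0.00137) and by 1.93 in NUP98-NSD1+NRASG12D cells (SE 0.18, limma adjusted p = 3.76e-04).

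Ctsa, a serine carboxypeptidase that holds beta-galactosidase and neuraminidase together in the lysosome, had 223, 253 and 253 FPKM in NRASG12D, 278, 243 and 240.0 FPKM in NUP98-NSD1 and 256, 656 and 500.1 FPKM in NUP98-NSD1+NRASG12D libraries. NRASG12D and NUP98-NSD1 overlapped, and replicates 2 and 3 of NUP98-NSD1+NRASG12D lay above them. The difference between NUP98-NSD1 and NRASG12D cells was 0.06 with a 95% interval from -0.17 to 0.28 (limma adjusted p = 0.623), and its sign changed to -0.25 with median-ratio scaling. For cells with both transgenes against NRASG12D alone it was 0.85 with a 95% interval from 0.05 to 1.65 (limma adjusted p = 0.0868). Of its partners in the complex, Glb1, which encodes beta-galactosidase, fell against NRASG12D cells by 0.45 on the log2 scale in NUP98-NSD1 (limma adjusted p = 0.00456, and 0.138 with all 9 libraries fitted together) and by 1.16 in NUP98-NSD1+NRASG12D cells (limma adjusted p = 0.0105). Neu1, the neuraminidase, rose by 1.83 in NUP98-NSD1+NRASG12D cells (limma adjusted p = 0.00285) and differed by 0.47 in NUP98-NSD1 cells (limma adjusted p = 0.0667).

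The study compared NUP98-NSD1 with NRASG12D cells to find genes that go with the fusion. These groups differ in both transgenes, so presence of the fusion and absence of NRASG12D cannot be told apart in this contrast. Here 7 of the 10 cathepsin genes were called higher and 2 lower, with Ctsa not called. Across all 13493 tested genes, 42.2% were called higher and 9.98% lower, so this contrast moved a large part of all genes. The 7 genes were also those whose libraries did not overlap, which held in the upward direction for 50.7% of the tested genes. The median difference was 1.05 over the 10 genes and 0.27 over all tested genes. With median-ratio scaling the median of all tested genes was 0.01 and that of the 10 genes 0.86. Of all calls 80.9% were higher, and 67.5%, 52.3% and 43.2% with scaling to a common total, median-ratio scaling and quantile scaling, and the same 9 cathepsin genes were called in each but for Ctsk with quantile scaling. All 10 genes passed the filter on low values, but Ctsh, Ctsk and Ctsl were under 1 FPKM in every NRASG12D library and passed only through the groups with the fusion. These 3 therefore had to be higher in some libraries with the fusion. Ctsk, with 1.62, 0.823 and 0.788 FPKM in NUP98-NSD1 libraries, met the filter through its 1.62, 20.6 and 5.76 FPKM in NUP98-NSD1+NRASG12D libraries.

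Replicate 2 of NRASG12D was the highest of its group for Ctsl, Ctss and Ctsh, at 0.996, 4.21 and 0.575 FPKM. The same library also had the highest neutrophil marker sum of its group, 12.9 FPKM against 0.194 and 0.867 FPKM, with Mpo at 3.53 FPKM and Ltf and Camp at 0 in all 3 libraries. Its monocyte and macrophage marker sum was instead the lowest of the group, 30.6 FPKM against 41.2 and 41.5 FPKM. Adgre1 and Cx3cr1 made up most of that sum, with 15.7 and 11.1 FPKM in replicate 2. Csf1r of the same list was highest there, at 1.28 FPKM against 0.0222 and 0.0913 FPKM. Cd74, the invariant chain that Ctss cleaves, had 16.6 FPKM there against 0.278 and 0.831 FPKM in the others. The part of other cells in these low cathepsin values was not tested. Without this library the difference between NUP98-NSD1 and NRASG12D cells was 5.58 for Ctsl (limma adjusted p = 3.46e-05) and 6.22 for Ctss (limma adjusted p = 2.64e-05).

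**Figure D2:**
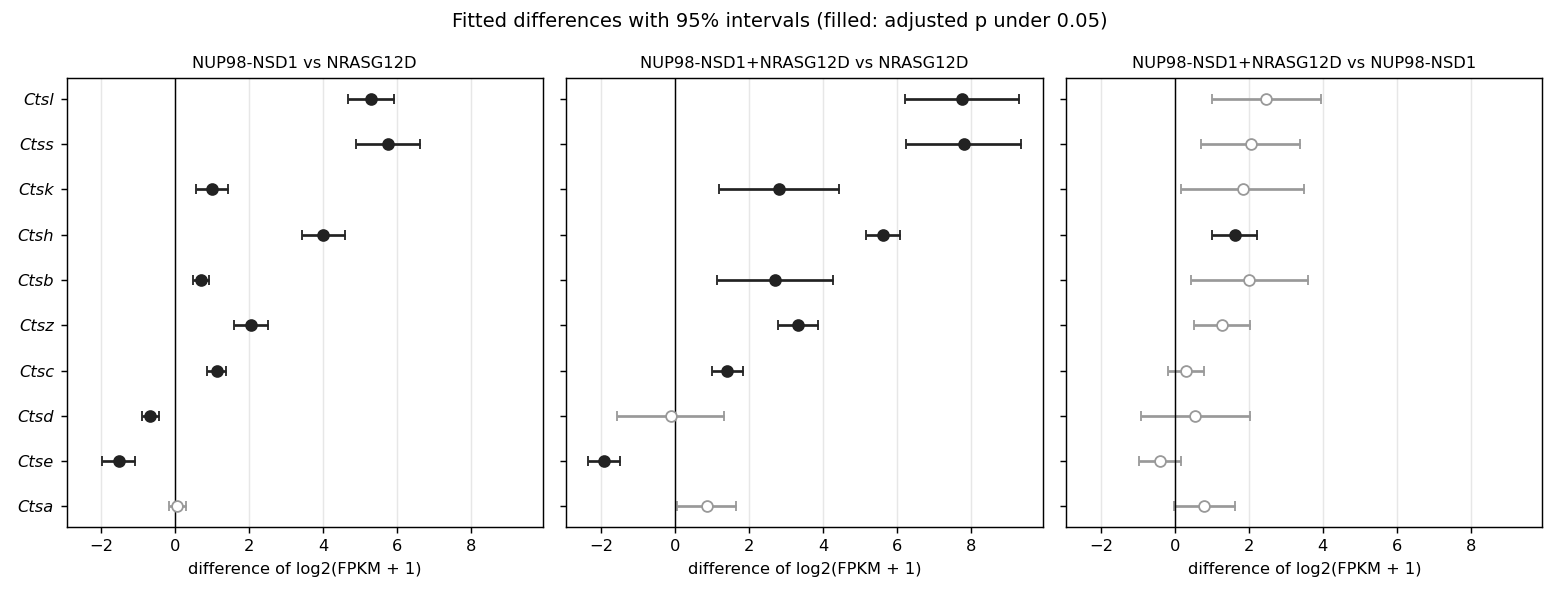
Fitted differences between groups for the 10 cathepsin genes on the log2(FPKM + 1) scale, with 95% intervals, filled where the limma adjusted p was under 0.05. NUP98-NSD1 against NRASG12D has 7 filled points above and 2 below 0, NUP98-NSD1+NRASG12D against NRASG12D has 7 above and 1 below, and NUP98-NSD1+NRASG12D against NUP98-NSD1 has Ctsh alone.

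In NUP98-NSD1+NRASG12D against NRASG12D cells, which share the RAS transgene, 7 cathepsin genes were called higher and Ctse lower, with Ctsa and Ctsd not called. Of all tested genes, 24.2% were called higher and 14.1% lower, so 63.1% of the calls were higher, and 47.8%, 53.1% and 41.3% under the same 3 scalings, each of which called the same 8 cathepsin genes. The median difference was 2.76 over the 10 genes and 0.23 over all tested genes. In 8 of the 10 genes the libraries did not overlap in the upward direction, against 38.7% of the tested genes. Ctsh, Ctsk and Ctsl are among these 8 and among the 7 called higher. They passed the filter on low values only through the groups with the fusion, so they had to be higher in some of those libraries. This comparison uses the same NRASG12D libraries as the one before. The calls of Ctsb and Ctsk did not survive without any 1 of the NRASG12D libraries, with limma adjusted p between 0.0534 and 0.0659 for Ctsb and between 0.0542 and 0.0582 for Ctsk. Without replicate 1 of NUP98-NSD1+NRASG12D all 10 genes were called.

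NUP98-NSD1+NRASG12D against NUP98-NSD1 cells asks what the RAS transgene adds to the fusion. Ctsh was the 1 cathepsin gene called, higher by 1.62 ± 0.26 (SE, limma adjusted p = 0.0157), and none was lower, either by limma's adjusted p or at an unadjusted p under 0.05, at which 6 were higher. Of all tested genes, 2.30% were called higher and 6.31% lower. The median difference was 1.45 over the 10 genes and -0.06 over all tested genes. In Ctsb, Ctsh, Ctsl, Ctss and Ctsz the lowest library with both transgenes still exceeded the highest NUP98-NSD1 library, as in 11.6% of the tested genes, and in these 5 the level rose through all 3 groups without overlap, as in 8.38% of the tested genes. The differences of the others of this set were 2.47 for Ctsl (limma adjusted p = 0.0580), 2.05 for Ctss (limma adjusted p = 0.0723), 2.00 for Ctsb (limma adjusted p = 0.120) and 1.27 for Ctsz (limma adjusted p = 0.0547), and their 95% intervals lay above 0. The others were 1.83 for Ctsk (limma adjusted p = 0.165), 0.79 for Ctsa (limma adjusted p = 0.220), 0.55 for Ctsd (limma adjusted p = 0.682), 0.29 for Ctsc (limma adjusted p = 0.470) and -0.40 for Ctse (limma adjusted p = 0.373). The calls turned on single libraries. Without replicate 1 of NUP98-NSD1+NRASG12D, 8 of the 10 genes were called higher, all but Ctsc and Ctse. Without replicate 2, Ctsh, Ctsl and Ctss were called, and without replicate 3 none was by limma (Ctsh, adjusted p = 0.0555), with 5 at an unadjusted p under 0.05. The number of all genes called was 1162, and 2509, 1078 and 494 without replicates 1, 2 and 3.

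The make-up of the cathepsin transcripts changed between the groups. The 10 genes summed to 2732, 3069.5 and 2963 FPKM in NRASG12D and to 3202, 2989.5 and 2995 FPKM in NUP98-NSD1 libraries, ranges that overlap. In NUP98-NSD1+NRASG12D libraries they summed to 3481, 13637 and 7126 FPKM, above both. As a share of all FPKM of a library, the sum was 0.493% to 0.553% in NRASG12D and 0.475% to 0.505% in NUP98-NSD1 libraries. That share was 0.516%, 2.23% and 1.06% in NUP98-NSD1+NRASG12D libraries, so by it replicate 1 lay within the NRASG12D range. Ctsd took 71.2% ± 0.870 (SD, n = 3) of the summed cathepsin FPKM in NRASG12D cells, 42.8% ± 3.41 in NUP98-NSD1 cells and 28.9% ± 11.0 in NUP98-NSD1+NRASG12D cells. Ctsb took 9.81% ± 0.942, 15.1% ± 0.456 and 27.7% ± 9.93 in the same order. The cysteine endopeptidases Ctsl, Ctss and Ctsk together went from 0.0830% ± 0.0752 to 6.56% ± 0.441 and 13.6% ± 4.66. Ctsa held 8.32% ± 0.197, 8.27% ± 0.349 and 6.40% ± 1.39. The sums of the first 2 groups overlapped while the share of Ctsd was lower, and those of the cysteine proteases higher, in NUP98-NSD1 cells. These shares are a description, and no test was run on them.

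The order of the levels also differed. In NRASG12D cells Ctsd came first with a mean of 2082 FPKM, followed by Ctsb, then Ctsa and Ctsc, whose ranges overlapped, then Ctsz at 75.9 and Ctse at 7.85 FPKM, and by Ctss, Ctsl, Ctsh and Ctsk. In NUP98-NSD1 cells Ctsd at 1307 FPKM was followed by Ctsc and Ctsb, whose ranges overlapped, and Ctss at 148 FPKM and Ctsl at 52.0 FPKM had moved above Ctse. In NUP98-NSD1+NRASG12D cells the 7 genes with the highest means, from Ctsb at 2575 to Ctsl at 391 FPKM, each overlapped their neighbour in the order. Some genes further apart in it did not overlap. Ctsb, with at least 714 FPKM, lay above Ctsc and Ctsa, with at most 699 and 656 FPKM. Ctsd, with at least 676 FPKM, also lay above Ctsa. Ctsh, Ctsk and Ctse came after these 7 genes, and the ranges of Ctsk and Ctse overlapped.

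**Figure D3:**
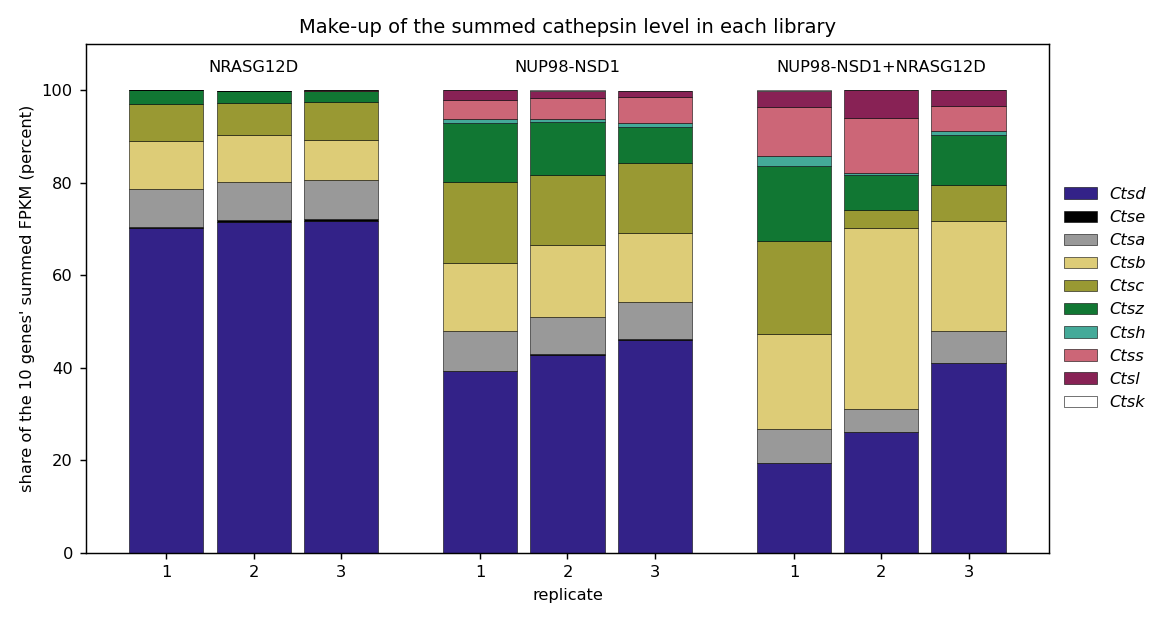
Share of each cathepsin gene in the summed FPKM of the 10 genes, in percent, with 1 bar per library. The Ctsd share lies between 70.2% and 71.8% in NRASG12D, between 39.3% and 46.1% in NUP98-NSD1 and between 19.4% and 41.0% in NUP98-NSD1+NRASG12D libraries, where Ctsb reaches 39.1% in replicate 2.

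Replicate 2 of NUP98-NSD1+NRASG12D stood apart for many of the cathepsin genes. It was the highest of all 9 libraries for Ctsa, Ctsb, Ctsd, Ctsk, Ctsl, Ctss and Ctsz, and 10.4% of the tested genes were highest in that library. Replicate 1 was the highest for Ctsc and Ctsh, as for 34.4% of the tested genes. The ratio of the highest to the lowest library in this group was 12.7 for Ctsk, 7.46 for Ctsb, 6.43 for Ctsl, 5.28 for Ctsd and 4.49 for Ctss, and 1.81 for Ctsz, 1.36 for Ctsh and 1.30 for Ctsc. For Ctsb and Ctsd it was 1.23 and 1.15 in NRASG12D and 1.05 and 1.10 in NUP98-NSD1 cells. The low levels of NRASG12D cells gave larger ratios for Ctsl, Ctss and Ctsh, at 12.7, 5.33 and 3.61, and NUP98-NSD1 cells had 2.04 for Ctse against 1.64, so the wider spread of NUP98-NSD1+NRASG12D does not hold for all cathepsin genes. Of the 10 monocyte and macrophage markers, 7 were also highest in replicate 2. The sum of that list was 1578, 2771 and 4235 FPKM in replicates 1 to 3, of which Ly6c2 alone gave 3674 FPKM in replicate 3. The complement gene C1qb had 27.9, 485 and 85.3 FPKM, C1qa 3.84, 144 and 29.1 FPKM and the mannose receptor gene Mrc1 9.89, 132 and 9.61 FPKM. Replicate 2 also had the highest mast cell marker sum of the group, 4324 FPKM against 968 and 738 FPKM. All 3 eosinophil markers were highest there as well, with a sum of 218 FPKM against 32.6 and 2.93 FPKM. The part of these cell mixtures in the cathepsin levels was not tested.

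By the mean absolute difference of gene-centred log2(FPKM + 1) over the 9 libraries, the tested gene closest to Ctsb was Ctsk and the closest to Ctsk was Ctsb, at 0.12. Ctsl and Ctss were each other's closest gene at 0.33. These pairs were the nearest of 13492 other genes. The next closest to Ctsl was C1qb at 0.48, to Ctss Wfdc17 at 0.35 and to both Ctsb and Ctsk Gm42793, at 0.19 and 0.18. Ctsh was closest to Sirpb1c at 0.23 and Tlr2 at 0.31, Ctsz to Csf2ra and Cdk20 at 0.12, Ctsc to Erp29 at 0.10, Ctsa to Myo5a at 0.08 and Slc38a7 at 0.10, Ctsd to Capg at 0.14 and Lrp12 at 0.15, and Ctse to Nxpe4 at 0.20 and Gm44974 at 0.22. Genes that vary little lie close to many others by this measure, so it is a description of pattern. The added 1 also flattens genes near 0, such as Ctsk with 0.0583 FPKM or less in NRASG12D libraries. The mean FPKM of NUP98-NSD1 was 36.1 times that of NRASG12D cells for Ctsk and 1.62 times for Ctsb, so their match holds only on this scale.

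Of 12 further cathepsin genes, 10 did not pass the filter on low values and reached at most 0.673 FPKM in any library. Ctsf, a cysteine cathepsin, had 4.39, 5.20 and 4.63 FPKM in NRASG12D, 3.57, 2.71 and 3.54 FPKM in NUP98-NSD1 and 0.118, 0.728 and 0.183 FPKM in NUP98-NSD1+NRASG12D libraries. It fell in all 3 comparisons, by 0.43, 2.12 and 1.69 on the log2 scale (limma adjusted p = 0.0279, 5.29e-04 and 0.00940). The first of these was not called without NRASG12D replicate 2 or 3 or NUP98-NSD1 replicate 2 (limma adjusted p between 0.0677 and 0.0949). This is the reverse order of the groups to that of Ctsl and Ctss. Ctso was not called in any comparison (limma adjusted p = 0.120, 0.515 and 0.973).

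Of the genes that sort and mature cathepsins, 6 of 8 tested were higher in NUP98-NSD1 than in NRASG12D cells and none lower, by limma's adjusted p or at an unadjusted p under 0.05. In NUP98-NSD1+NRASG12D against NRASG12D cells 6 were higher and 2 lower, and against NUP98-NSD1 cells 1 was higher and 1 lower. Over all tested genes the shares were 42.2% and 9.98%, 24.2% and 14.1%, and 2.30% and 6.31%. The medians of the list were 0.60, 1.20 and 0.63, beside 0.27, 0.23 and -0.06. Lgmn encodes legumain, which cuts single-chain cathepsins into their mature forms. It had 5.42, 2.35 and 1.66 FPKM in NRASG12D, 41.9, 44.4 and 41.4 FPKM in NUP98-NSD1 and 83.6, 854 and 143 FPKM in NUP98-NSD1+NRASG12D libraries. Its groups did not overlap, and replicate 2 stood out as it did for Ctsl and Ctss. Lgmn was higher than in NRASG12D cells by 3.50 in NUP98-NSD1 (limma adjusted p = 4.12e-04) and by 5.82 in NUP98-NSD1+NRASG12D cells (limma adjusted p = 0.00202). Psap, the precursor of the saposins and a partner of cathepsin D in transport, had 156, 177 and 149 FPKM in NRASG12D, 596, 492 and 441 FPKM in NUP98-NSD1 and 983, 2424 and 1565 FPKM in NUP98-NSD1+NRASG12D libraries. It rose in all 3 comparisons, by 1.65, 3.26 and 1.61 (limma adjusted p = 3.09e-04, 5.18e-04 and 0.0401). The last of these calls was lost under each scaling and without any 1 NUP98-NSD1 library or replicate 3 of NUP98-NSD1+NRASG12D (limma adjusted p between 0.0513 and 0.165). Sort1, the receptor sortilin, rose by 1.28 and 2.36 against NRASG12D cells (limma adjusted p = 0.00217 and 6.77e-04), but was under 1 FPKM in every NRASG12D library and passed the filter only through the other groups. The 2 genes that were lower, Gnptab and Gnptg, encode the subunits of the enzyme that makes the mannose 6-phosphate tag. Gnptab fell in NUP98-NSD1+NRASG12D cells by 1.21 against NRASG12D (limma adjusted p = 0.00137) and by 1.19 against NUP98-NSD1 cells (limma adjusted p = 0.0120), and the latter was not called without NUP98-NSD1 replicate 2 or 3 (limma adjusted p = 0.0638 and 0.0595).

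Of the cathepsin inhibitors, 16 of the 17 with a row were tested. In NUP98-NSD1 against NRASG12D cells 10 were higher and 2 lower, and in NUP98-NSD1+NRASG12D against NRASG12D cells 10 were higher and 3 lower. Between the groups with the fusion 4 were higher and 3 lower. The 4 were Stfa1, Csta2, Cstdc5 and Cstdc6. Stfa1 stayed called whichever library was left out. Csta2 and Cstdc5 were each not called without any 1 NUP98-NSD1 library (limma adjusted p between 0.0941 and 0.149). The medians of the list in the 3 comparisons were 1.48, 5.65 and 3.27. Beside the shares over all tested genes, 42.2% higher and 9.98% lower, then 24.2% and 14.1%, and 2.30% and 6.31%, the medians over all tested genes were 0.27, 0.23 and -0.06. The 10 that rose against NRASG12D cells were in both cases the stefin A-like genes, which are near-identical copies, so how reads were divided among them is uncertain. Of them, 6 were under 1 FPKM in every NRASG12D library and passed the filter only through the groups with the fusion, so these had to be higher in some libraries with the fusion. Among these, Csta1 had 0.644, 0.465 and 0.609 FPKM in NUP98-NSD1 libraries and passed only through NUP98-NSD1+NRASG12D libraries. Stfa1 had 0, 3.12 and 0.128 FPKM in NRASG12D, 88.3, 33.7 and 63.8 FPKM in NUP98-NSD1 and 285, 468 and 545 FPKM in NUP98-NSD1+NRASG12D libraries. Stefin B (Cstb) and cystatin C (Cst3), the broadly expressed inhibitors, were not called in any comparison. Cst3 had 486, 500.2 and 424 FPKM, 498, 469 and 455 FPKM and 503, 587 and 422 FPKM in the 3 groups. Its differences were 0.01, 0.09 and 0.08 (limma adjusted p = 0.907, 0.727 and 0.888), and the sign of each turned under at least 1 scaling, as in -0.29 for NUP98-NSD1 against NRASG12D cells with median-ratio scaling (limma adjusted p = 0.0222). Ctla2a, which encodes an inhibitor resembling a cathepsin propeptide, went down through the groups from 983, 1142 and 899 to 429, 462 and 582 and to 21.1, 78.6 and 10.1 FPKM. It fell by 1.04, 5.22 and 4.18 in the 3 comparisons (limma adjusted p = 0.00195, 0.00118 and 0.0146). The first was not called with all 9 libraries fitted together (limma adjusted p = 0.195), and the last was not called without NUP98-NSD1 replicate 2 or 3 (limma adjusted p = 0.0544 and 0.0719). Ctla2b also fell in each comparison, and Cst7 in those with NUP98-NSD1+NRASG12D cells.

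The invariant chain and class II genes were higher in NUP98-NSD1 than in NRASG12D cells in 6 of 7 cases, and in NUP98-NSD1+NRASG12D than in NRASG12D cells in 5 of 7, beside 42.2% and 24.2% of all tested genes. Ciita was under 1 FPKM in every NRASG12D library and passed the filter only through the other groups. None was called between the groups with the fusion (limma, Benjamini-Hochberg adjusted p of 0.324 or more, and 0 of 7 at an unadjusted p under 0.05). Cd74 had 0.278, 16.6 and 0.831 FPKM in NRASG12D, 407, 265 and 361 FPKM in NUP98-NSD1 and 419, 627 and 132 FPKM in NUP98-NSD1+NRASG12D libraries. Like Ctss it was low in NRASG12D cells, and its difference between the groups with the fusion was -0.05 (limma adjusted p = 0.977), with a sign that turned to 0.06 under median-ratio scaling. H2-Aa had 37.2, 40.0 and 2.51 FPKM in NUP98-NSD1+NRASG12D libraries, so replicate 3 was low there. Its rise against NRASG12D cells in that group, 3.64 (limma adjusted p = 0.0234), was called without NRASG12D replicate 2 or NUP98-NSD1+NRASG12D replicate 3 and not without any other library (limma adjusted p between 0.0569 and 0.0793). The medians of the list were 3.74, 2.89 and -0.46.

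Of 10 genes listed as serine proteases that cathepsin C activates, 9 were tested. The list includes the tryptases Tpsab1 and Tpsb2, and whether cathepsin C activates each product was not tested here. In NUP98-NSD1 against NRASG12D cells 5 were higher and 3 lower, and in NUP98-NSD1+NRASG12D against NRASG12D cells 2 were higher and 6 lower, beside 42.2% and 9.98%, and 24.2% and 14.1%, of all tested genes. The 2 that rose there were the neutrophil proteases Elane, by 10.40 (limma adjusted p = 6.19e-05), and Prtn3, by 9.46 (limma adjusted p = 1.33e-04). Elane had 0, 1.68 and 0.102 FPKM in NRASG12D, 1289, 1224 and 175 FPKM in NUP98-NSD1 and 3767, 994 and 1945 FPKM in NUP98-NSD1+NRASG12D libraries. The mast cell chymase Cma1 fell by 5.86 (limma adjusted p = 5.35e-04), from 16008, 12715 and 15911 FPKM to 163, 697 and 144 FPKM, and granzyme B (Gzmb) by 5.51 (limma adjusted p = 0.00433). Mcpt4, another chymase, rose by 2.68 in NUP98-NSD1 (limma adjusted p = 0.00216) and fell by 2.48 in NUP98-NSD1+NRASG12D cells (limma adjusted p = 0.0313), a fall that was called without NRASG12D replicate 2 or NUP98-NSD1+NRASG12D replicate 2 and not without any other library (limma adjusted p between 0.0831 and 0.104). Ctsc itself ranged from 211 to 699 FPKM over the 9 libraries. Between the groups with the fusion no gene of this list was higher, by limma's adjusted p or at an unadjusted p under 0.05, and 6 were lower. The median difference of the list was 2.01, -2.48 and -3.96 in the 3 comparisons, beside 0.27, 0.23 and -0.06 over all tested genes.

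The other lysosomal hydrolases went in both directions. Of 20 tested, 5 were higher and 7 lower in NUP98-NSD1 cells when set against NRASG12D cells, and 6 were higher and 4 lower in NUP98-NSD1+NRASG12D than in NRASG12D cells. Over all tested genes 42.2% were higher and 9.98% lower in the first and 24.2% and 14.1% in the second comparison. Their median difference was 0.02 and -0.13, beside 0.27 and 0.23 over all tested genes. Those with the largest changes were Arsb, arylsulfatase B, which rose by 2.11 and 3.12 (limma adjusted p = 0.00129 and 5.45e-05) but was under 1 FPKM in every NRASG12D library and so passed the filter only through the other groups, Lipa, lysosomal acid lipase, which rose by 0.97 and 2.04 (limma adjusted p = 4.72e-04 and 0.0109, with 0.0881 for the first when all 9 libraries were fitted together), and Ids, iduronate sulfatase, which fell by 1.08 and 1.87 on the log2 scale (limma adjusted p = 0.00206 and 0.00355). Between the groups with the fusion, Asah1, acid ceramidase, was the 1 called gene of this list, higher by 0.91 (limma adjusted p = 0.0350), a call that was kept only without NUP98-NSD1+NRASG12D replicate 1 among the fits without a library (limma adjusted p between 0.0660 and 0.149 in the others).

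Of 10 lysosomal membrane protein genes, 3 were higher and 2 lower than in NRASG12D cells in each group with the fusion, with medians of -0.02 and 0.29. Of all tested genes 42.2% were higher and 9.98% lower in NUP98-NSD1 and 24.2% and 14.1% in NUP98-NSD1+NRASG12D cells, so these counts are not a result about this list. Lamp1 had 19.0, 41.6 and 36.6 FPKM in NRASG12D, 54.9, 60.4 and 58.0 FPKM in NUP98-NSD1 and 102, 163 and 111 FPKM in NUP98-NSD1+NRASG12D libraries. It rose by 0.89 and 1.96 against NRASG12D cells (limma adjusted p = 0.0264 and 0.00382), and the first was not called under any of the 3 scalings or without any 1 NUP98-NSD1 library (limma adjusted p between 0.0590 and 0.118). Between the groups with the fusion it rose by 1.07 (limma adjusted p = 0.0268), which was kept without NUP98-NSD1+NRASG12D replicate 1 or 2 and lost without any other library (limma adjusted p between 0.0644 and 0.108). Cd68, a macrophage lysosomal protein, had 26.2, 34.4 and 20.9, 82.1, 67.4 and 71.2, and 129.8, 682 and 456 FPKM. Cd63, a tetraspanin of lysosomes and mast cell granules, fell by 0.74 and 2.39 against NRASG12D cells (limma adjusted p = 0.00588 and 0.00197), and the first was not called with all 9 libraries fitted together (limma adjusted p = 0.0961).

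Of the 6 transcription factors of lysosomal genes with a row, 4 rose and 1 fell in NUP98-NSD1 against NRASG12D cells, and 5 were higher and 1 lower in NUP98-NSD1+NRASG12D than in NRASG12D cells. Between the groups with the fusion none was called (limma, Benjamini-Hochberg adjusted p of 0.0530 or more), with 3 higher and 1 lower at an unadjusted p under 0.05. The medians were 1.44, 2.28 and 0.84. Beside these counts, 42.2% and 24.2% of all tested genes were higher and 9.98% and 14.1% lower. Of the 6, 3 were under 1 FPKM in every NRASG12D library, among them Tfeb and Tfec, and passed the filter only through the other groups. Tfeb, a factor that binds the extended E-box, had 0.687, 0.306 and 0.148 FPKM in NRASG12D, 5.20, 4.67 and 3.15 FPKM in NUP98-NSD1 and 8.89, 7.32 and 9.73 FPKM in NUP98-NSD1+NRASG12D libraries. Mitf, of the same family and needed for mast cells, had 29.8, 33.1 and 30.6, 15.1, 14.5 and 17.6, and 4.13, 12.3 and 6.02 FPKM. Tfeb rose by 1.95 and 2.82 (limma adjusted p = 9.25e-04 and 1.74e-04) and Mitf fell by 0.95 and 2.04 against NRASG12D cells (limma adjusted p = 8.83e-04 and 0.00368). Tfec, also of that family, had 0.0264, 0.0263 and 0.101 FPKM in NRASG12D and 9.77 FPKM or more in the other libraries. Spi1, which encodes PU.1, rose by 0.94 and 1.74 (limma adjusted p = 0.00745 and 2.48e-04).

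**Figure D4:**
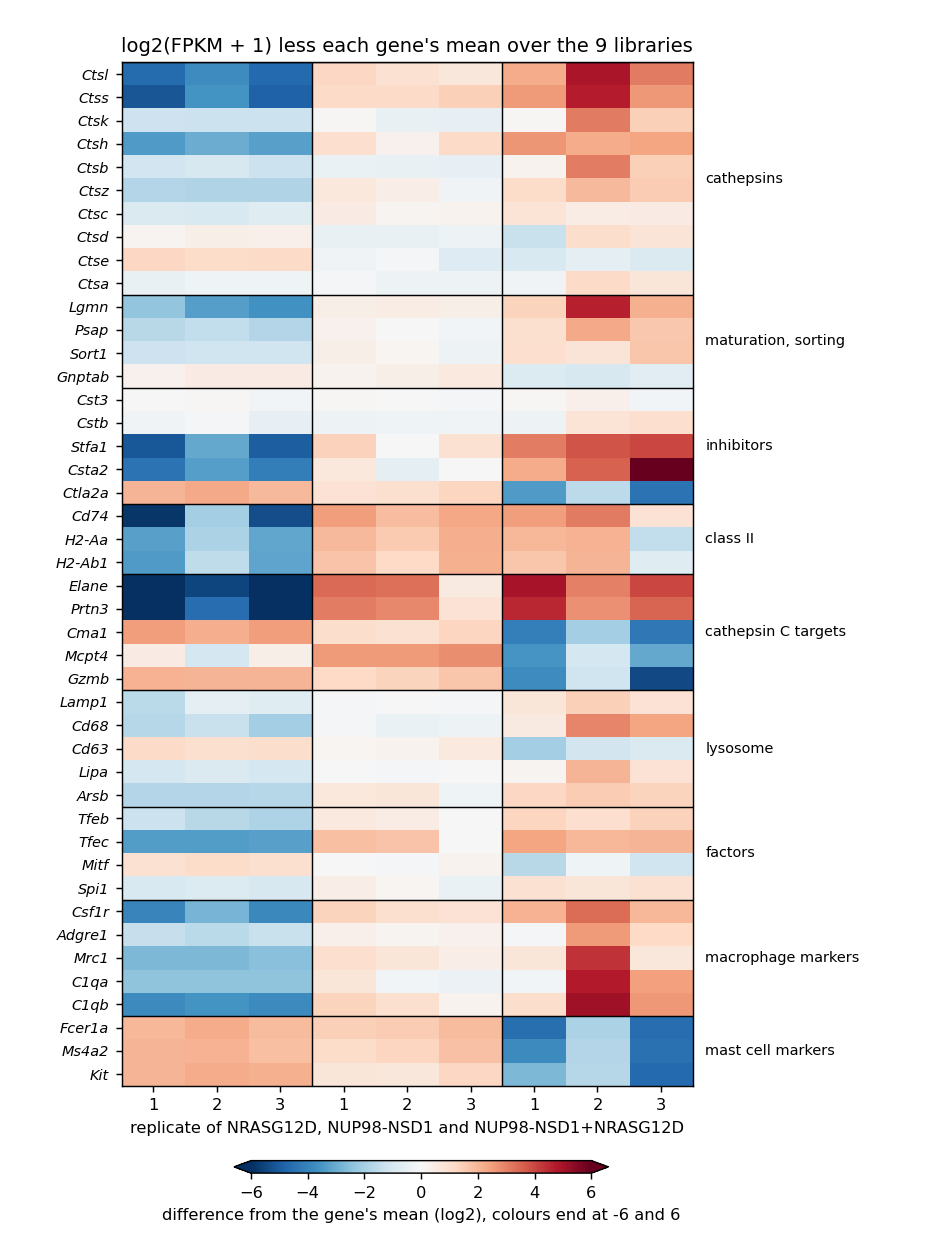
Heat map of log2(FPKM + 1) less each gene's mean over the 9 libraries, with genes in rows grouped by role and the 3 replicates of each group in columns. Ctsl, Ctss and Ctsh share their low values in NRASG12D with Lgmn, Cd74 and the 5 macrophage markers plotted. These 5 were picked from the list of 10, of which Cx3cr1, not plotted, went the other way. The highest values of Ctsl and Ctss are in replicate 2 of NUP98-NSD1+NRASG12D, where C1qa, C1qb and Mrc1 are also highest. Of the 10 listed markers 7 were highest in that library, while Cd14 and Ly6c2, not plotted, were highest in replicate 3 of the same group.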

How the data were processed

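RNA of 9 libraries was sequenced by the authors as paired-end reads of 50 bp and aligned to GRCm38 with the GENCODE M22 annotation, and the submitters' processing notes name STAR 2.7.2a, Cufflinks 2.2.1 and GRCm38.p6. The values the authors deposited are FPKM per gene. The authors' count-based DESeq2 comparison was not run here on FPKM. Groups came from the sample labels. Values of an identifier listed more than once were summed. The 13493 genes that reached 1 FPKM in 3 or more libraries were compared as log2(FPKM + 1) with limma 3.58.1 in R 4.3.3, each pair of groups on its own 6 libraries, with a mean-variance trend, Benjamini-Hochberg adjustment over all tested genes and a threshold of 0.05. An exact permutation test of 3 libraries against 3 cannot go below 0.1 and was not used. The fit was tested on simulated data. Depth was estimated from the steps of low FPKM in 3386 genes with 1 transcript over 2500 bp, where 85.3% to 87.9% of low values lay within 0.1 of a whole step. Of the identifiers, 54882 were found in GENCODE M21, which gave lengths, strands and coordinates counted from 1. Python 3.11.15 served with pandas 2.3.3, numpy 2.4.6 and matplotlib 3.10.9.

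The 10 genes and the lists around them were chosen with earlier results of these data known. Named genes are the 10 cathepsins, up to 3 called genes per list and comparison with the largest change, Cstb, Cst3, Lgmn, Cd74, Lamp1, Mitf, Tfeb and Spi1, and the 2 tested genes closest in pattern to each cathepsin. Other names were chosen after their values were seen. Some genes that the rule names are not reported here. Alternatives were pseudocounts of 0.1 and 10, no filter or one at 5 FPKM, 3 scalings, 1 fit of all 9 libraries, array weights, a replicate block and leaving out single libraries.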

Additional observations from a re-analysis of the deposited data

How the results depend on the processing

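Of 477 fitted cathepsin differences under other settings, 433 kept their direction and their side of the threshold, 15 lost a call, 22 gained one and 7 changed sign. Cathepsin genes called numbered 9 in NUP98-NSD1 against NRASG12D cells (6 to 9 under other settings, 9 without any 1 library), 8 in NUP98-NSD1+NRASG12D against NRASG12D cells (6 to 9, and 6 to 10 without any 1 library) and 1 in NUP98-NSD1+NRASG12D against NUP98-NSD1 cells. That last count was 0 with no filter on low values (4 at an unadjusted p under 0.05), 5 with all 9 libraries in 1 fit, 7 with array weights and 0 to 8 without any 1 library. Over all genes the 3 counts were 7036, 5173 and 1162. They were 3065 to 8802, 3871 to 6596 and 169 to 3500 under other settings and 4736 to 7948, 2941 to 6327 and 283 to 2509 without any 1 library. The lowest of the first count came from the fit of all 9 libraries, and of the third from no filter, with 2251 in the fit of all 9 libraries and 3500 with array weights.

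Signs changed in few genes. Ctsa in NUP98-NSD1 against NRASG12D cells was -0.11 with each library scaled to a common total, -0.25 with median-ratio and -0.23 with quantile scaling, and -0.01 to 0.10 without any 1 library. Ctsd in NUP98-NSD1+NRASG12D against NRASG12D cells was 0.35 with array weights and -0.56 to 0.64 without any 1 library. Cst3 was -0.15, -0.29 and -0.14 in NUP98-NSD1 against NRASG12D cells and -0.15, -0.11 and -0.23 in NUP98-NSD1+NRASG12D against NRASG12D cells with the same 3 scalings, with -0.05 in the latter with array weights. In NUP98-NSD1+NRASG12D against NUP98-NSD1 cells it was -0.09 with quantile scaling and -0.04 with array weights. Without any 1 library Cst3 lay between -0.06 and 0.06, -0.02 and 0.21, and -0.04 and 0.20. In NUP98-NSD1 against NRASG12D cells, Cstb lay between -0.12 and 0.09 and Gnptab between -0.13 and 0.08. In NUP98-NSD1+NRASG12D against NUP98-NSD1 cells, Cd74 was 0.06 with median-ratio scaling and between -0.52 and 0.60 without any 1 library, H2-Aa between -1.63 and 0.14 and H2-Ab1 between -1.20 and 0.18. Apart from fewer libraries or genes in a fit, the cause of these changes was not tested.

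Libraries of the same replicate number showed no strong shared deviation from their group means, with correlations of -0.177 to 0.16. Whether libraries of the same number share a mouse, culture or batch was not tested. With the replicate number as a block, 9, 8 and 1 cathepsin genes and 6864, 4531 and 801 of all genes were called, and the calls between the groups with the fusion were lost for Psap (limma adjusted p = 0.0713), Asah1 (limma adjusted p = 0.0862) and Cd63 (limma adjusted p = 0.0507), as was Ctsf in NUP98-NSD1 against NRASG12D cells (limma adjusted p = 0.0632). At the estimated depth, values of Ctsk under 0.0595 FPKM in NRASG12D replicate 2 rest on fewer than 3 fragments. A library left out of a group of 3 leaves 2 to estimate the spread.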
